A study of Mus musculus with 36 samples.

Results

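RNA from tumour-associated macrophages (TAMs) of mice lacking B cells was compared with RNA from TAMs of WT mice, whichever pellet the B cell-deficient mice carried. By their labels, 18 of the 36 libraries of the series entered the comparison: 6 from WT mice, 6 from *muMt*-/- mice and 6 from *muMt*-/- mice with a GABA pellet. Both *muMt*-/- groups had the same weight, so the difference is the mean of 12 libraries against 6, estimated for every gene. The series asks how B cells and GABA, an inhibitory transmitter, act on immune cells of tumours. Its other libraries came from tumour CD8+ T cells. *muMt*-/- mice (C57BL/6J) carry a targeted mutation that stops B cell development before the mature stage, while their T cells and myeloid cells remain. WT mice were C57BL/6J or C57BL/6N, without a statement of which subline each mouse had. Mice were of both sexes and 2 to 5 months old, as given for all mouse experiments together. Placebo or GABA slow-release pellets were placed under the skin 1 day before MC38 colon adenocarcinoma cells were injected into the skin. The sample labels name GABA in 1 of the 3 macrophage groups and no treatment in the others, which are taken here as placebo groups. WT TAMs with a GABA pellet were not analysed here, so the pellets were compared in *muMt*-/- mice alone. Libraries of the placebo-treated *muMt*-/- group are numbered as *muMt*-/- libraries and those with GABA as GABA libraries.

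TAMs derive largely from blood monocytes that enter the tumour and mature there, and they clear dying cells, remodel matrix and blood vessels, and regulate T cells. B cells can reach macrophages through antibody bound by Fc receptors, through complement, through cytokines and through small molecules.

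On day 7 after tumour injection, 100 CD45.2+CD11b+F4/80 hi cells were sorted per library, with 1 library per mouse. A molecular barcode on each cDNA allowed molecules to be counted in place of reads, and levels are given as normalized numbers of molecules, the count of a gene divided by the size factor of its library. WT libraries held 206394 molecules at the lowest, 242756 at the median and 304100 at the highest. The 12 *muMt*-/- libraries held 100254, 184169 and 262606, with a median of 149960 in the placebo-treated and 192775 in the GABA-treated group. The ranges overlapped, and the geometric mean in *muMt*-/- TAMs was 0.726 of that in WT TAMs (two-sided exact permutation p = 0.0212, adjusted p = 0.0423 over 2 measures). Without WT library 5, the deepest, the exact permutation p was 0.057. Detected genes per library were fewer by 571 on average, with an exact permutation p of 0.0589 (adjusted p = 0.0589). Fewer cells of a type and less RNA per cell cannot be told apart in such samples, and a lower capture of molecules was not tested.

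The sort label was checked on marker lists. Summed over the 15 macrophage markers, led by *Ctss*, the level per 10000 molecules was 182 ± 18.6 in WT, 152 ± 16.6 in placebo-treated *muMt*-/- and 154 ± 32.5 in GABA-treated *muMt*-/- TAMs (SD, n = 6). *Adgre1*, which encodes F4/80, had 54.2 ± 12.7 normalized molecules in WT TAMs and 53.9 ± 14.8 in the 12 *muMt*-/- libraries (log2 fold change −0.03, adjusted p = 0.971). *Ptprc*, which encodes CD45, had 92.0 ± 9.50 and 97.4 ± 15.6 (adjusted p = 0.904), and *Itgam*, which encodes CD11b, had 99.9 ± 25.4 and 141 ± 35.4 (adjusted p = 0.137). The genes of the sort were thus present in the groups, and none passed the test. B cell and plasma cell markers were near 0 in all 3 groups. Their 16 genes together came to 0.172 ± 0.109 per 10000 molecules in WT, 0.272 ± 0.207 in placebo-treated and 0.213 ± 0.167 in GABA-treated TAMs, *Cd79b* was the most abundant, and *Cd79a*, *Pax5*, *Blk*, *Fcmr* and *Jchain* were among those at 0 in the 18 libraries. RNA of B cells carried along in the sort was therefore about as low in WT as in *muMt*-/- libraries, and the gene targeted in *muMt*-/- mice was not analysed here. *Xist*, which marks female cells, was at 0 in the 18 libraries, and the Y-linked genes *Ddx3y* and *Eif2s3y* were detected in each of them. Of *Nnt*, which is disrupted in C57BL/6J, WT libraries had 0.923 to 3.41 and *muMt*-/- libraries 0 to 3.32 normalized molecules, a level low in both genotypes.

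Markers of other cells were sparse, with libraries that stood apart. The endothelial list came to 5.78 per 10000 molecules in WT library 1 and to 0.639 or less in the other WT libraries. The fibroblast list, led by *Col3a1*, reached 64.8 in WT library 6, against 9.83 or less in the others of that group. It came to 28.9 in GABA library 2 and 23.9 in *muMt*-/- library 3, and to 14.7 or less in the other libraries of both *muMt*-/- groups. Nuclear noncoding RNAs, led by *Malat1*, reached 105 in *muMt*-/- library 4, against 60.6 or less in the other placebo-treated libraries. GABA library 1 had the lowest macrophage marker sum of the 18 libraries, 97.4, and the highest share of *Rn45s*, the ribosomal RNA precursor, 19.9% of molecules. *Rn45s*, which was chosen after its values were seen, took a median of 9.35% of molecules in WT (7.07% to 11.4%), 13.3% in placebo-treated (12.5% to 18.8%) and 8.68% in GABA-treated *muMt*-/- TAMs (6.96% to 19.9%). Each placebo-treated *muMt*-/- library was thus above all WT libraries in this share, whereas 4 of the 6 GABA-treated ones were within or below the WT range, and over both groups *Rn45s* had a log2 fold change of 0.42 (adjusted p = 0.285). The nuclear RNA sum was 36.4 ± 2.52, 63.3 ± 20.9 and 41.1 ± 7.07 per 10000 molecules in the 3 groups (SD, n = 6). The part of these differences in RNA makeup in the gene results was not tested. Counts of changed genes are given below with and without 4 of the libraries named, WT libraries 1 and 6, *muMt*-/- library 4 and GABA library 1.

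**Figure D1:**
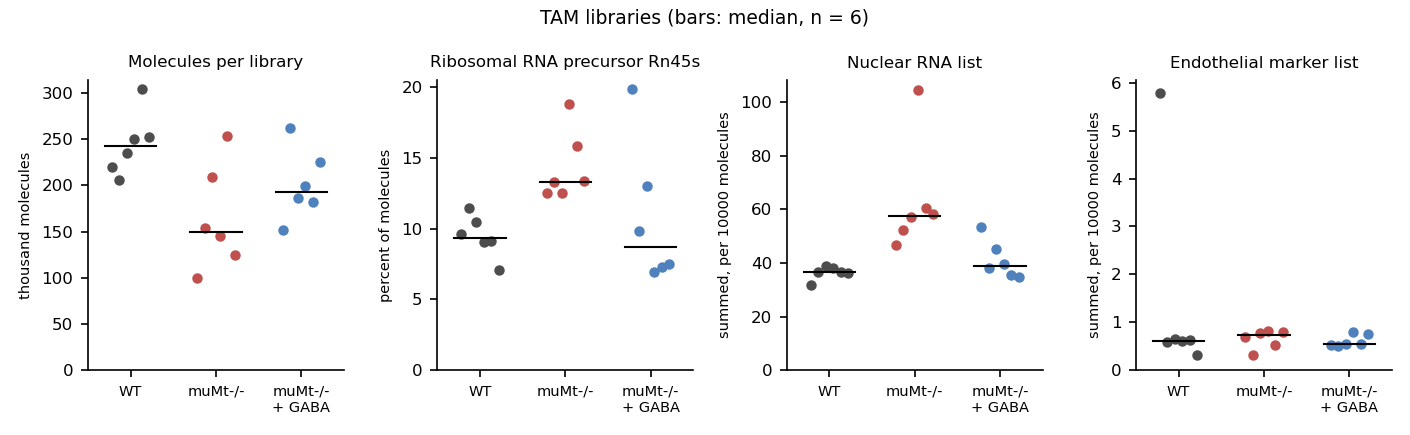
Molecules per library, share of *Rn45s* (percent of molecules), and summed nuclear RNA and endothelial marker lists (per 10000 molecules) in the 18 TAM libraries. Each point is a library and each bar the median of 6. WT library 1 stands alone in the endothelial list at 5.78, and *muMt*-/- library 4 in the nuclear RNA list at 105.

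B cell deficiency went with higher RNA for the amino acid transporter CAT2 and for the fungal glucan receptor Dectin-1, and with lower RNA for the cell division genes *Kif20a* and *Ccna2*, the ribosomal protein gene *Rpl28* and the lysozyme gene *Lyz2*. Of 9469 genes tested with edgeR, 86 passed an adjusted p of 0.05 (0.908%), of which 35 rose (0.37%) and 51 fell (0.539%) in *muMt*-/- TAMs. Without adjustment, 1168 genes (12.3%) had a p under 0.05, 513 higher and 655 lower. The median log2 fold change over all tested genes was −0.02. Changes were of moderate size, with 36 of the 86 genes at or over a 2-fold difference, and 76 of them at a mean of 5 or more normalized molecules. In 15 genes (0.158%) the 12 *muMt*-/- and the 6 WT libraries did not overlap. Of the 86 called genes, *Gdap10* and *Plbd1* lay above all WT libraries in each *muMt*-/- library, and 11 lay below: *Cd52*, *Cdca8*, *Cox5b*, *Haao*, *Kif20a*, *Ptpa*, *Rbm42*, *Rpl29*, *Rplp2*, *Rps29* and *Tk1*. Of these, *Cd52*, *Haao*, *Plbd1* and *Rbm42* were chosen after their values were seen. *Haao* lost its call in 13 of 18 fits without 1 library (highest adjusted p 0.122), *Plbd1* in 7 (0.131) and *Rbm42* in 2 (0.0983).

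How many genes passed varied with the terms of the fit and with the libraries in it. With library depth (log2 molecules) added to the fit as a covariate, 10 genes passed, all of them among the 86, and 76 of the 86 did not. *Asf1b*, *BC018473*, *Ccna2*, *Clec7a*, *Igfbp3*, *Mir6236*, *Mir6240*, *Ptpa* and *Slc7a2* were among the 10 that passed. The call of *Igfbp3* rested on WT library 1, with 81 normalized molecules against a WT median of 0. Of the genes that did not pass there, *Kif20a* had a log2 fold change of −1.20 (adjusted p = 0.198; −1.41 without the covariate) and *Lyz2* −0.68 (adjusted p = 0.166; −0.74 without it). In the 10 libraries with at least 200000 molecules (6 WT, 2 placebo-treated and 2 GABA-treated *muMt*-/-), 14 genes passed, 12 of them among the 86. In the 14 libraries left without the 4 that stand apart, 27 passed, 24 of them among the 86. The part of depth or of the smaller number of libraries in these counts was not tested. Leaving out 1 library at a time gave 35 calls without WT library 1, 56 without WT library 2, 43 without WT library 3, 51 without WT library 6, 49 without *muMt*-/- library 4 and 57 without GABA library 3. Of the 86 genes, 24 passed in each such fit that tested them, 62 were lost in at least 1, and none changed direction. *Igfbp3* was among the 24 but was not tested without WT library 1. *Asf1b*, *BC018473*, *Clec7a*, *Mir6236*, *Mir6240* and *Slc7a2* were among the genes that passed under each of the 30 alternatives run. Genes named below kept their call whichever library was left out, unless the exceptions are given.

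**Figure D2:**
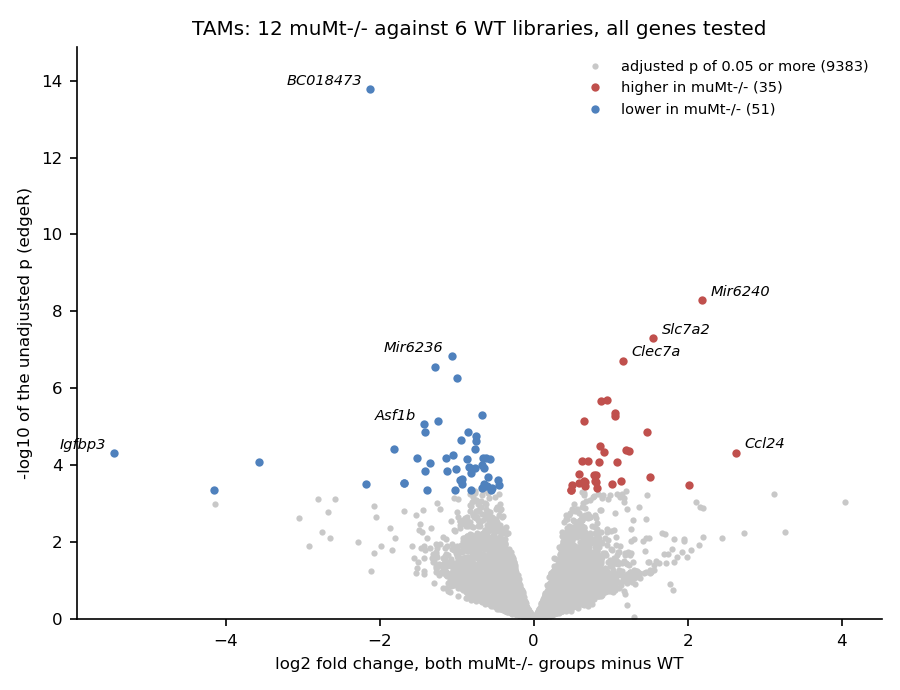
Log2 fold change of both *muMt*-/- groups against WT (x axis) and −log10 of the unadjusted edgeR p (y axis) for the 9469 tested genes. Each point is a gene; 35 genes passed as higher (red) and 51 as lower (blue). *BC018473* has the lowest p, and *Mir6240* the lowest among the rises.

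Amino acid transport had 1 of the clearest rises, that of *Slc7a2*. This gene encodes CAT2, a transporter of arginine, lysine and ornithine. WT libraries had 3.69, 9.82 and 15.3 normalized molecules (lowest, median and highest), and the 12 *muMt*-/- libraries 13.8, 26.9 and 46.0. All but 1 of the *muMt*-/- libraries lay above the highest WT library. The log2 fold change was 1.56 ± 0.23 (SE, adjusted p = 0.000155). Of 22 tested genes of amino acid transport and metabolism, 2 passed as rises, *Slc7a2* among them (9.09%). A further 3 were higher and 2 lower at an unadjusted p only, and the list median, −0.05, was close to the −0.02 of all genes. The rise of the transporter was thus not shared by the list as a whole.

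Among pattern receptors and genes of alternative activation there were strong rises too. *Clec7a* encodes Dectin-1, a C-type lectin that binds fungal β-glucan and signals through Syk. It had 79.4, 101 and 159 normalized molecules in WT and 155, 216 and 459 in *muMt*-/- TAMs. The groups overlapped through WT library 5, the highest of its group, and 10 of 12 *muMt*-/- libraries lay above it. The log2 fold change was 1.16 ± 0.18 (adjusted p = 0.000362). *Clec7a* was the 1 gene that passed among 15 C-type lectins (6.67%; list median 0.04), and none of 22 other pattern recognition receptors and adaptors passed (1 lower at an unadjusted p; list median 0.03). *Ccl24*, a chemokine for eosinophils made by alternatively activated macrophages, was close to 0 in WT, with 0, 0.821 and 5.02 normalized molecules, and had 0, 8.44 and 27.9 in *muMt*-/- TAMs. The ranges overlapped in 4 of 12 *muMt*-/- libraries. Its log2 fold change was 2.63 ± 0.57 (adjusted p = 0.0159; 0.0511 without WT library 1). Of 24 tested genes of alternative activation and scavenging, 2 passed as rises, *Ccl24* among them (8.33%), and 11 were higher and 3 lower at an unadjusted p, calls included. In that list 15 had positive and 9 negative values, and the median of 0.42 was the highest among the lists of macrophage functions.

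Matrix, coagulation and growth factor genes were mixed. In this list of 36 genes, *Thbs1*, *Fn1* and *F10* rose and *Lgals1* fell (11.1%; list median 0.08). *F10*, which encodes coagulation factor X, had 2.56, 6.33 and 17.6 normalized molecules in WT and 7.05, 18 and 32.6 in *muMt*-/- TAMs. In 6 of 12 libraries it was above the WT range, and its GABA-treated median, 15.3, lay within that range. The log2 fold change was 1.13 ± 0.28 (adjusted p = 0.0402), and the call was lost in 10 of 18 fits without 1 library (highest adjusted p 0.131, without WT library 1). *Thbs1*, which encodes thrombospondin 1, an inhibitor of vessel growth, had 23.1, 37.2 and 53.7 normalized molecules in WT, 72.1, 102 and 273 in placebo-treated and 25.4, 50.4 and 101 in GABA-treated *muMt*-/- TAMs, so the GABA median lay within the WT range. Over both groups it had a log2 fold change of 1.09 ± 0.25 (adjusted p = 0.0194), with adjusted p of 0.0828, 0.0694 and 0.0635 without WT libraries 1, 2 and 3. *Fn1*, which encodes fibronectin and is also a monocyte marker, had 185, 201 and 251 normalized molecules in WT and 188, 291 and 399 in *muMt*-/- TAMs. Of the 12 libraries, 8 were above the WT range (log2 fold change 0.49 ± 0.12, adjusted p = 0.0423; lost in 13 of 18 fits, highest adjusted p 0.126 without WT library 1). The GABA-treated median of *Fn1*, 244, lay within the WT range. *Lgals1*, which encodes galectin 1, fell by 0.54 on the log2 scale (SE 0.14, adjusted p = 0.0478; lost in 11 of 18 fits, highest adjusted p 0.124 without WT library 1). Chosen after their values were seen, *Sdc4*, a matrix-binding proteoglycan, and *Inhba*, the subunit of activin A, had log2 fold changes of 0.66 and 0.82 (adjusted p = 0.0402 and 0.0478), calls lost in 10 and 15 of 18 fits (highest adjusted p 0.103 without WT library 1 and 0.146 without WT library 3). Their GABA-treated medians, 38.8 and 27.9 normalized molecules, lay within the WT ranges (23.2 to 41.5 and 7.38 to 36.4).

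Among cytokines and checkpoint ligands, 1 of 23 tested genes passed. *Cd274*, which encodes the T cell inhibitory ligand PD-L1, had 32.7, 45.0 and 65.9 normalized molecules in WT and 55.5, 76.2 and 101 in *muMt*-/- TAMs. In 9 of 12 libraries it was above the WT range (log2 fold change 0.63 ± 0.14, adjusted p = 0.0194). The median was 83.6 in placebo-treated and 60.9 in GABA-treated *muMt*-/- TAMs, the latter within the WT range. The adjusted p was 0.0717, 0.0638, 0.058 and 0.073 without WT libraries 1, 2, 3 and 4. *Il1b*, the most abundant of the TNF and NF-κB induced genes, had 172 ± 47.6 in WT and 221 ± 76.1 in *muMt*-/- TAMs (adjusted p = 0.449). None of the 44 TNF and NF-κB induced genes passed, with 10 higher and 4 lower at an unadjusted p and a median of 0.15.

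Transcription factor genes of the early response and of haem metabolism were also represented. *Klf4*, a zinc finger factor that promotes monocyte differentiation, had 26.0, 31.7 and 35.6 normalized molecules in WT and 31.1, 51.6 and 112 in *muMt*-/- TAMs, 11 of 12 of them above the WT range (log2 fold change 0.87 ± 0.18, adjusted p = 0.0138). It was the 1 gene that passed among 27 immediate early genes (3.7%), a list with 20 positive values and a median of 0.22. *Bach1*, a haem-sensing repressor, had a log2 fold change of 0.81 ± 0.20 (adjusted p = 0.0415; lost in 11 of 18 fits, highest adjusted p 0.103 without WT library 1) and was the 1 of 15 iron and haem genes that passed (6.67%; median 0.05). *Tiparp*, a mono-ADP-ribosyltransferase induced by the aryl hydrocarbon receptor, had a log2 fold change of 1.05 ± 0.20 (adjusted p = 0.00425), and 10 of 12 *muMt*-/- libraries were above the WT range. *Klf9*, a zinc finger factor induced by glucocorticoids, had 1.52 ± 0.37 (adjusted p = 0.0349; lost in 7 of 18 fits, highest adjusted p 0.0909 without WT library 3), and *Suco*, a gene of the endoplasmic reticulum, 1.24 ± 0.27 (adjusted p = 0.0154; 0.0556 without WT library 1).

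Of nuclear and nucleolar RNAs, *Neat1* and 3 small nucleolar RNAs passed as rises. *Neat1*, the noncoding RNA on which paraspeckles are built, had 18.2, 25.5 and 32.4 normalized molecules in WT and 31.2, 43.0 and 82.3 in *muMt*-/- TAMs. All but 1 of 12 libraries lay above the WT range (log2 fold change 0.87 ± 0.16, adjusted p = 0.0022), whereas *Malat1*, the most abundant nuclear RNA, chosen after its values were seen, had 0.50 (adjusted p = 0.0863). Against WT, *Malat1* had 0.82 in placebo-treated (adjusted p = 0.00385) and 0.17 in GABA-treated *muMt*-/- TAMs (adjusted p = 0.889). Of 15 small nucleolar RNAs tested, *Snora75*, *Snora81* and *Snord22* rose, 14 had positive values, and the median was 0.89. *Snora75* had the largest of these changes, 1.47 ± 0.30 (adjusted p = 0.0073), and *Snord22* had 1.20 ± 0.26 (adjusted p = 0.0152; 0.0515 without WT library 3). *Snora81*, chosen after its values were seen, had 0.65 ± 0.13 (adjusted p = 0.00476). The transcripts that carry these 3 RNAs in their introns, also chosen after the values were seen, had smaller values: *Ncl* with *Snora75* had a log2 fold change of 0.16 (adjusted p = 0.75), *Eif4a2* with *Snora81* 0.02 (adjusted p = 0.991) and *Snhg1* with *Snord22* −0.32 (adjusted p = 0.822). Of 110 long noncoding RNAs, 2 rose and 1 fell. *Gdap10*, which lies in the region of *Nampt*, had 10.3, 13.4 and 16.7 normalized molecules in WT and 17.4, 29.6 and 51.8 in *muMt*-/- TAMs, with no overlap (log2 fold change 1.06 ± 0.20, adjusted p = 0.00413), while *Nampt* itself, chosen in the same way, had 0.11 (adjusted p = 0.783).

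**Figure D3:**
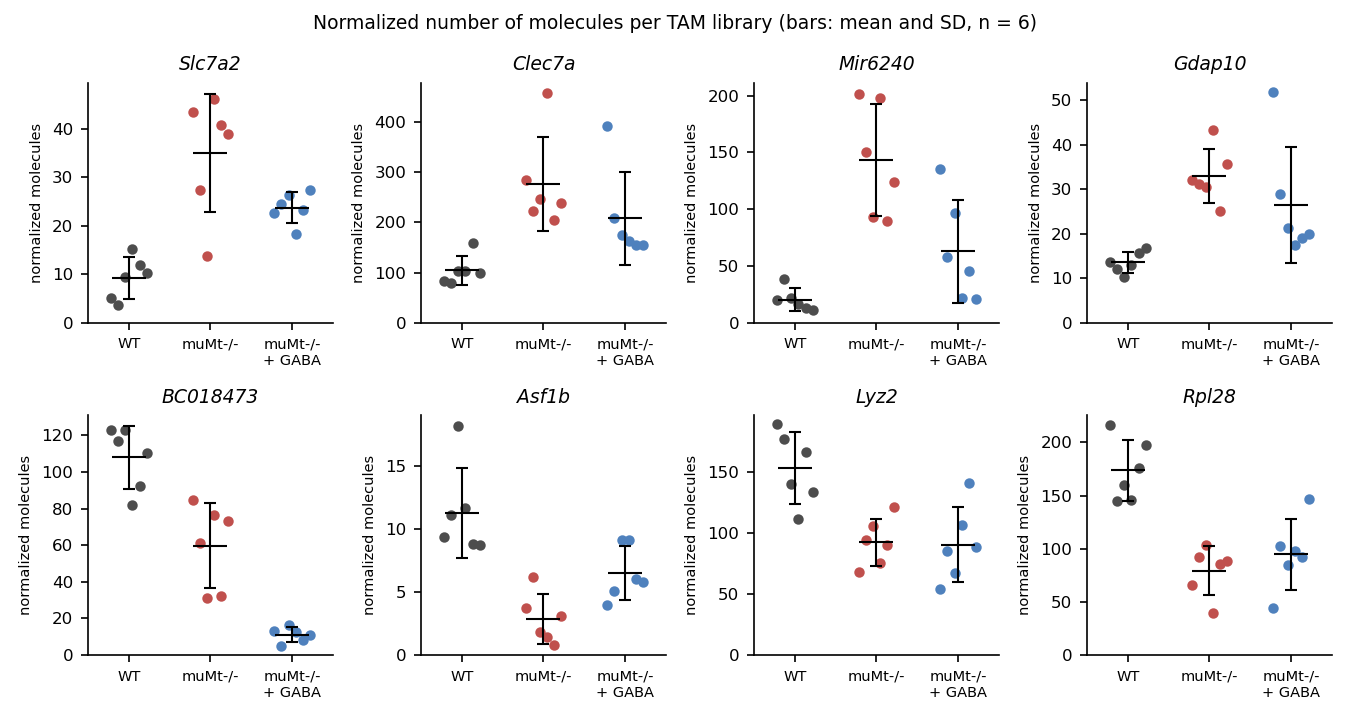
Normalized numbers of molecules of 8 genes in each TAM library, with mean and SD of 6 libraries per group. *Slc7a2*, *Clec7a*, *Mir6240* and *Gdap10* are higher in both *muMt*-/- groups, and *BC018473*, *Asf1b*, *Lyz2* and *Rpl28* lower. *BC018473* is lowest in the GABA group, at 11.0 ± 4.01 against 108 ± 17.1 in WT.

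Genes of cell division had mostly negative values in *muMt*-/- TAMs, and a few of them passed. Of 64 genes of mitosis and the kinetochore, 62 had negative values, 25 of them at an unadjusted p under 0.05, and 4 passed as falls (6.25%), with a list median of −0.53 against −0.02 over all genes. Of 52 genes of DNA replication, 44 had negative values, 14 at an unadjusted p, and 2 passed as falls (3.85%), with a list median of −0.44. No gene of either list rose. *Kif20a*, a kinesin of cytokinesis, had 5.97, 8.71 and 12.6 normalized molecules in WT and 0, 3.39 and 5.49 in *muMt*-/- TAMs. The groups did not overlap (log2 fold change −1.41 ± 0.28, adjusted p = 0.0073). *Ccna2*, which encodes cyclin A2, had 10.2, 18.5 and 26.0 in WT and 2.79, 6.24 and 15.8 in *muMt*-/- TAMs, 9 of 12 below the WT range (−1.24 ± 0.24, adjusted p = 0.00476). *Asf1b*, a histone chaperone of S phase, had 8.72, 10.2 and 18.2 in WT and 0.783, 4.52 and 9.16 in *muMt*-/- TAMs, 10 of 12 below the WT range (−1.42 ± 0.28, adjusted p = 0.00531). *Tk1*, the thymidine kinase of dividing cells, had 9.23, 10.6 and 12.4 in WT and 1.24, 4.68 and 9.14 in *muMt*-/- TAMs. Its groups did not overlap (−1.13 ± 0.25, adjusted p = 0.0182).

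The remaining calls of the mitosis list were *Cdca8*, a subunit of the chromosomal passenger complex, and *Mad2l1*, a spindle checkpoint protein. *Cdca8* did not overlap between the groups (9.38 to 16.6 in WT, 2.79 to 9.29 in *muMt*-/- TAMs; −1.05 ± 0.23, adjusted p = 0.0167; 0.0626 without WT library 3). *Mad2l1* was below the WT range in 10 of 12 libraries (−1.35 ± 0.31, adjusted p = 0.0201; 0.0513 without WT library 3 and 0.0511 without WT library 6). The median of the mitosis and kinetochore list was −0.53 with depth as a covariate and −0.63 in the libraries of at least 200000 molecules. That of the DNA replication list was −0.43 and −0.44. Among the called genes of the mitosis list, *Cdca8*, *Kif20a* and *Mad2l1* did not pass with the covariate (adjusted p = 0.128, 0.198 and 0.217; log2 fold changes −1.31 to −1.14). In the libraries of at least 200000 molecules, *Cdca8*, *Kif20a*, *Mad2l1* and *Ccna2* did not pass (adjusted p = 0.19, 0.143, 0.0986 and 0.123; −1.52 to −1.09). Of the DNA replication list, *Asf1b* passed in both fits (adjusted p = 0.0252 and 0.0165), and *Tk1* was not among the genes named above as passing with the covariate. The part of depth in these values was not tested. Fewer dividing cells in the sort and less of these RNAs per dividing cell cannot be told apart.

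Promoters of cell cycle genes often hold the letters TTTGAA (cell cycle genes homology region, CHR) and CCAAT, so they were searched in the 250 bases before each gene start, on both strands, in RefSeq sequences of GRCm38.p6. TTTGAA was in 41.8% of the promoters of 55 matched mitosis genes, 19% of 42 matched DNA replication genes, 12.7% of 7478 tested genes and 18.3% of 27025 genes in all. CCAAT was in 70.9%, 64.3%, 40.5% and 37.5% of the same groups. E2F letters (TTTCCCGC, TTTGGCGC, TTTCGCGC or TTTGCCGC) were in 10.9%, 21.4%, 4.15% and 2.16%. A match is a description of the sequence only. Of the 6 called genes of the lists, *Tk1*, *Asf1b*, *Mad2l1* and *Cdca8* were matched. *Asf1b* (chr8:83955444-83955693, + strand) had 4 CCAAT and 1 TTTGAA, and *Cdca8* (chr4:124936918-124937167, − strand) had 3 CCAAT. *Tk1* and *Mad2l1* had neither, and none of the 4 had E2F letters. The 2 sequences with matches are printed. They show how these letters lie in front of the genes, with the matches in capitals; ATTGG is CCAAT on the other strand.
Asf1b: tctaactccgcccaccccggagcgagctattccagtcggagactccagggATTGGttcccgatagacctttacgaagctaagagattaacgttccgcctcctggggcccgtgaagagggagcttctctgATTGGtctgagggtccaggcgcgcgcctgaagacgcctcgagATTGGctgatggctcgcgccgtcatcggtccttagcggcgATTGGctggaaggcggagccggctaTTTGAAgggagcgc
Cdca8: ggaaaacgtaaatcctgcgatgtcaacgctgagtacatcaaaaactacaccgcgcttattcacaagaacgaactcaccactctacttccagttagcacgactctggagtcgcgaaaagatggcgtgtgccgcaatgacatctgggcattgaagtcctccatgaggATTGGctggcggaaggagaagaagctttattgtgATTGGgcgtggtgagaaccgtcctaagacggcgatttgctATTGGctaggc

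Ribosomal protein genes had mostly negative values, of which few passed. Of 80 genes of the cytosolic ribosomal proteins, 73 had negative values, 46 at an unadjusted p under 0.05, and 9 passed as falls (11.2%), with a list median of −0.28. They were *Rpl6*, *Rpl7a*, *Rpl10*, *Rpl28*, *Rpl29*, *Rpl36*, *Rplp2*, *Rps27* and *Rps29*. *Rpl28*, a protein of the large subunit, had 145, 168 and 217 normalized molecules in WT and 39.0, 90.3 and 147 in *muMt*-/- TAMs. All but 1 of 12 libraries lay below the WT range (−0.99 ± 0.17, adjusted p = 0.000718). *Rpl29* did not overlap between the groups, at 130 to 165 in WT and 66.4 to 123 in *muMt*-/- TAMs (−0.66 ± 0.13, adjusted p = 0.00425). The other 7 had log2 fold changes of −0.76 to −0.45. Without WT library 1, 6 of them were lost (adjusted p of 0.0556 to 0.106), and over all 18 fits *Rplp2* was lost in 12, *Rps29* in 7 and *Rps27* in 3. *Rpl7a* was lost without WT library 2 (0.0518) and without WT library 5 (0.0543). The median of the cytosolic ribosomal proteins was −0.17 with depth as a covariate and −0.12 in the libraries of at least 200000 molecules. *Rpl28* and *Rpl29* were not among the genes named above as passing with the covariate. The part of depth in these values was not tested. Of 77 mitochondrial ribosomal proteins none passed, and 58 had negative values, 8 at an unadjusted p (median −0.21).

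Respiratory chain genes had negative values of similar size. Of 38 genes of complexes II to V, 34 had negative values, and *Cox5b* passed as a fall (2.63%; list median −0.21). *Cox5b*, a subunit of cytochrome *c* oxidase, had 56.3, 59.6 and 71.6 normalized molecules in WT and 13.9, 32.2 and 52.4 in *muMt*-/- TAMs, with no overlap (−0.86 ± 0.17, adjusted p = 0.0073). It was not among the genes named above as passing with depth as a covariate. The part of depth in the values of the respiratory chain genes was not tested. None of the 37 complex I genes passed, with 29 negative values, 8 at an unadjusted p, and a median of −0.23, among them *Ndufa3* with a log2 fold change of −0.55 (adjusted p = 0.106). *Fh1*, the fumarase of the citric acid cycle, fell by 1.02 on the log2 scale (adjusted p = 0.0499; lost in 14 of 18 fits, highest adjusted p 0.15 without WT library 1). None of 29 genes of glycolysis and hypoxia passed, with 8 higher and 1 lower at an unadjusted p and a median of 0.15. *Gapdh* had 388 ± 59.2 in WT and 306 ± 111 in *muMt*-/- TAMs (adjusted p = 0.469).

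Of the macrophage markers, lysozyme and a chain of C1q fell. *Lyz2*, the lysozyme of macrophages, had 112, 153 and 190 normalized molecules in WT and 54.4, 89.5 and 141 in *muMt*-/- TAMs. In 10 of 12 libraries it was below the WT range (−0.74 ± 0.15, adjusted p = 0.0105). *C1qb*, a chain of complement C1q, had 352, 428 and 471 in WT and 141, 285 and 367 in *muMt*-/- TAMs (−0.55 ± 0.14, adjusted p = 0.0495; lost in 13 of 18 fits, highest adjusted p 0.116 without WT library 4). They were the 2 of 15 macrophage markers that passed (13.3%), in a list with a median of −0.16. Of 9 monocyte markers, *Fn1* passed, 8 had positive values and the median was 0.53. *Trem2*, a lipid receptor of TAMs, fell by 0.81 on the log2 scale (SE 0.19, adjusted p = 0.0298), with adjusted p of 0.0593, 0.0765, 0.0717, 0.0591 and 0.0521 without WT libraries 1, 5 and 6 and *muMt*-/- libraries 2 and 4. *Lpl*, the lipoprotein lipase, fell by 1.39 (SE 0.36, adjusted p = 0.0495; lost in 14 of 18 fits, highest adjusted p 0.171 without WT library 3). These were the 2 of 32 lipid and cholesterol genes that passed (6.25%; list median −0.01). In GABA-treated *muMt*-/- TAMs the medians of *Trem2* and *Lpl* were 27.3 and 3.28 normalized molecules, within the WT ranges (26.8 to 42.9 and 1.85 to 12.6).

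Among 26 chemokines and chemokine receptors, *Ccl24* rose and *Cxcl14* fell (7.69%; list median 0.03). *Cxcl14* had 10.7, 19.8 and 33.4 normalized molecules in WT and 2.79, 8.60 and 19.4 in *muMt*-/- TAMs, 9 of 12 below the WT range (−1.13 ± 0.27, adjusted p = 0.0271). Its adjusted p was 0.0777, 0.0667, 0.118 and 0.0514 without WT libraries 3, 4 and 6 and *muMt*-/- library 2. *Ccl2*, a monocyte attractant, had 166 ± 57.3 and 119 ± 33.6 (adjusted p = 0.21). *Ptpa*, an activator of protein phosphatase 2A, was among the lowest p of the falls. It had 15.0, 19.9 and 21.8 normalized molecules in WT and 2.49, 8.03 and 13.3 in *muMt*-/- TAMs, with no overlap (−1.28 ± 0.21, adjusted p = 0.000443). *Cd52*, a small surface glycoprotein chosen after its values were seen, had 320 to 406 in WT and 102 to 301 in *muMt*-/- TAMs, again with no overlap (−0.64 ± 0.15, adjusted p = 0.0247; 0.0674 without WT library 2 and 0.0658 without WT library 5).

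*BC018473*, a noncoding transcript of the list of small nucleolar RNA hosts, had the lowest p of all genes. WT libraries had 82.1, 114 and 123 normalized molecules, placebo-treated *muMt*-/- libraries 31.3, 67.0 and 84.8, and GABA-treated ones 5.05, 11.8 and 16.3. All but 1 of the 12 lay below the WT range, and the GABA-treated libraries lay below the placebo-treated ones without overlap. The log2 fold change over both groups was −2.12 ± 0.18 (adjusted p = 1.6e-10). *BC018473* was the 1 of 16 host transcripts that passed (6.25%; list median −0.23). Against WT, that median was −0.48 in placebo-treated and 0.04 in GABA-treated *muMt*-/- TAMs.

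A few falls rested on single WT libraries. *Igfbp3*, *Igfbp7* and *Cdh5*, genes of endothelial and stromal cells, had the largest negative log2 fold changes among calls, −5.45, −3.56 and −4.15 (adjusted p = 0.0159, 0.0194 and 0.0495). *Igfbp3*, chosen after its values were seen, had a median of 0 in WT and a highest value of 81, in WT library 1. *Igfbp7* reached 64.0 with a median of 0.363, and *Cdh5* 18.8 with a median of 0.363. WT library 1 had the endothelial list sum of 5.78 per 10000 molecules given above. Without it, *Igfbp3* and *Cdh5* were under the level required for testing, *Cdh5* was lost in 11 of 17 other such fits (highest adjusted p 0.0762), and *Igfbp7* had an adjusted p of 0.289 (0.0552 without WT library 6). The 3 calls thus rested on the levels in WT library 1, and for *Igfbp7* in WT library 6 as well. The part of other cells in those sorts was not tested.

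MicroRNA loci made up 6 of the 86 calls although 9 were tested. Whether such counts come from mature microRNAs or from longer RNA was not tested. *Mir6240* rose and *Mir6236*, *Mir682*, *Mir692-2*, *Mir692-3* and *Mir703* fell. *Mir6240* had 11.6, 18.6 and 38.8 normalized molecules in WT and 20.8, 94.8 and 202 in *muMt*-/- TAMs. In 10 of 12 libraries it was above the WT range (2.19 ± 0.29, adjusted p = 2.4e-05). *Mir6236* had 60.3, 103 and 122 in WT and 22.9, 47.6 and 67.4 in *muMt*-/- TAMs, 11 of 12 below the WT range (−1.06 ± 0.17, adjusted p = 0.000341). The other 4 were chosen after their values were seen. *Mir703* had a log2 fold change of −1.01 ± 0.24 (adjusted p = 0.0247), with adjusted p of 0.093, 0.052 and 0.0655 without WT libraries 1, 2 and 5. *Mir682* had −0.96 ± 0.24 (adjusted p = 0.0392), and its call was lost in 8 of 18 fits (highest adjusted p 0.0993 without WT library 1). *Mir692-2* and *Mir692-3* had equal counts in 18 of 18 libraries and each −1.69 ± 0.42 (adjusted p = 0.0415), lost in 10 of 18 fits (highest adjusted p 0.122 without WT library 5), so they stand for 1 signal.

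All 6 loci were matched to RefSeq mature sequences of GRCm38.p6, which are shown because they tell which loci are copies of other transcripts. The 5 distinct sequences shared no seed, bases 2 to 8, which is in capitals. They lie at chr5:114851973-114851998 (+ strand) for *Mir6240*, chr9:110281353-110281371 (+) for *Mir6236*, chr13:75645119-75645139 (+) for *Mir682*, chr5:98475616-98475636 (− strand) for *Mir703*, and chr4:125504805-125504825 (+) and chr13:74407121-74407141 (+) for *Mir692-2* and *Mir692-3*.
Mir6240: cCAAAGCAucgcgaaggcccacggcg
Mir6236: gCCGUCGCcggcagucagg
Mir682: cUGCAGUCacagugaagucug
Mir703: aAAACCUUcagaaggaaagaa
Mir692-2: aUCUCUUUgagcgccucacuc

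Searched in annotated mouse transcripts, the sequence of *Mir692-2* and *Mir692-3* matched 16 genes without mismatch, with *Ftl1*, the ferritin light chain, as the tested protein-coding gene among them. That of *Mir682* matched 13 genes, with *Rpl37a* among them, and that of *Mir703* matched 5, with *Eef1a1* among them. The levels at these 4 loci are therefore uncertain, since reads may be shared with these abundant genes. *Mir6240* and *Mir6236* matched their own loci alone, but the ribosomal RNA precursor *Rn45s* was not searched, and *Mir6236* lies within the noncoding *Gm39429*, which was not analysed here. The source of the counts at these 2 loci was not tested. Chosen after their values were seen, *Ftl1* had a log2 fold change of −0.26 (adjusted p = 0.44), *Rpl37a* −0.35 (adjusted p = 0.167) and *Eef1a1* −0.09 (adjusted p = 0.83). *Gvin1* and *Gm4070*, which also passed as rises and were chosen in the same way, had equal counts in 16 of 18 libraries and cannot be told apart either (log2 fold change 0.49 for each; lost in 14 of 18 fits, highest adjusted p 0.148 without WT library 3).

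Lists for the routes by which B cells and antibody act on macrophages gave few calls. None of 8 tested IgG Fc receptor genes passed, with 1 higher and 2 lower at an unadjusted p and a median of −0.08. *Fcer1g*, the shared signalling chain, had 317 ± 35.7 in WT and 254 ± 71.3 in *muMt*-/- TAMs (adjusted p = 0.395), and *Fcgr3* 194 ± 29.1 and 176 ± 41.6 (adjusted p = 0.776). Among 17 complement genes, *C1qb* passed (5.88%; list median 0.03). None of 12 genes of MHC class II presentation passed (1 higher at an unadjusted p; median 0.12), with *Cd74*, the invariant chain, at 723 ± 188 and 879 ± 255 (adjusted p = 0.566). Of 18 genes of MHC class I presentation, *Psmb10*, a subunit of the immunoproteasome, fell by 0.64 on the log2 scale (5.56%; SE 0.16, adjusted p = 0.042; lost in 9 of 18 fits, highest adjusted p 0.0943 without WT library 1). None of the 44 interferon-stimulated genes passed, 1 was higher and 1 lower at an unadjusted p, and the median was −0.02, that of all genes. *Cxcl9* had 292 ± 53.9 and 240 ± 78.5 (adjusted p = 0.564). Of 29 genes of GABA receptors and metabolism, 19 had no molecule in the 18 libraries. The 1 gene that reached the level for testing was *Gabarap*, at 102 ± 1.6 and 103 ± 19 (log2 fold change 0.00, adjusted p = 1). No receptor subunit or enzyme of the list was therefore tested.

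Housekeeping lists outside ribosome and respiration had no call. No gene passed among 40 lysosomal genes (median −0.10), 33 proteasome genes (−0.10), 24 heat shock and stress genes (−0.06) or 41 spliceosome genes (−0.20, with 30 negative values, a median near those of complexes II to V and of the mitochondrial ribosomal proteins). *Ctss* and *Ctsc*, the most abundant lysosomal genes, had adjusted p of 0.732 and 0.912, and *Hspa8* had 0.627. At an unadjusted p, 5 lysosomal genes were higher and 5 lower, 3 proteasome genes lower, 1 stress gene lower, and 1 spliceosome gene higher and 9 lower. The targeted locus lies on distal chromosome 12. From 100 Mb on, 77 genes of that chromosome were tested, and 1 of them passed, *Cpsf2*, which was chosen after its values were seen (log2 fold change 0.81 ± 0.19, adjusted p = 0.0322; lost in 9 of 18 fits, highest adjusted p 0.0891 without WT library 4). By DESeq2, none of the lists without a call in edgeR had one.

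**Figure D4:**
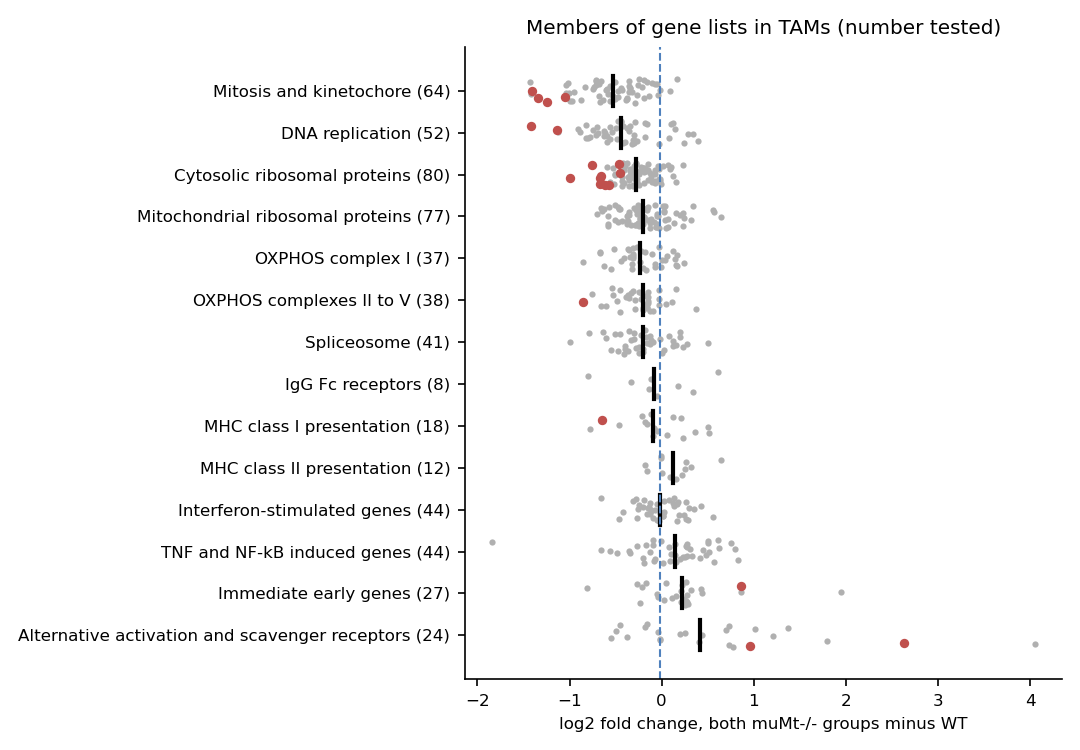
Log2 fold change of both *muMt*-/- groups against WT for the tested genes of 14 lists. Each point is a gene, red where it passed the test; black lines are list medians and the dashed blue line is the median of all genes. The mitosis list has the lowest median, −0.53, and ribosomal proteins have 9 calls.

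Each of the 2 *muMt*-/- groups was also set against the same 6 WT libraries, which both contrasts therefore share. The placebo arm alone called 194 genes (2.05%) and the GABA arm alone 7 (0.0739%), in the same edgeR fit. Placebo-treated *muMt*-/- libraries were the shallower ones, with a median of 149960 molecules against 192775 with GABA. The part of depth in the difference between the arms was not tested. Of the 35 rises and 51 falls over both groups, 33 and 40 passed in the placebo arm, and 3 and 3 in the GABA arm. The placebo arm had 67 calls without *muMt*-/- library 4, 87 without WT library 1, 125 without WT library 6 and 338 without GABA library 1, and the GABA arm had 2 to 9 without 1 library. The 35 genes that rose over both groups had a median log2 fold change of 1.11 in the placebo arm and 0.60 in the GABA arm. The 51 that fell had medians of −1.08 and −0.69. *Slc7a2* had 1.80 and 1.31, *Clec7a* 1.35 and 0.97, and *Mir6240* 2.77 and 1.60 in the placebo and the GABA arm. The median of the cytosolic ribosomal proteins was −0.47 and −0.11, and that of the mitosis list −0.70 and −0.36. Complex I had medians of −0.34 and −0.11, complexes II to V −0.34 and −0.08, and the mitochondrial ribosomal proteins −0.31 and −0.06.

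The difference between the arms was itself tested between the 12 *muMt*-/- libraries, GABA against placebo. In that contrast edgeR called 2 of 9469 genes (0.0211%), and 801 had an unadjusted p under 0.05. Of the 86 genes of the genotype effect, *BC018473* was called there too (log2 fold change −2.38, adjusted p = 1.95e-07), and 36 had an unadjusted p under 0.05. *Thbs1* had an adjusted p of 0.057. *Lrrc17*, the other gene called between the pellets, had 284, 462 and 614 normalized molecules in WT, 135, 244 and 497 in placebo-treated and 429, 875 and 1159 in GABA-treated *muMt*-/- TAMs. The medians of the 2 arms lay on opposite sides of the WT median, with 4 of the 12 libraries above and 3 below the WT range, and its genotype effect over both was 0.00 (adjusted p = 1). For the other called genes a difference between the arms was not shown, which does not make the arms equal. The count of 2 became 36 without GABA library 1, 12 without *muMt*-/- library 5, 6 without WT library 1, 5 without *muMt*-/- library 2 and 5 without GABA library 2.

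CD8+ T cells were used only to see whether the TAM calls had a like difference in other cells of such tumours. In the 18 CD8+ T cell libraries the same contrast called 0 of 6663 genes by edgeR, with 446 (6.69%) at an unadjusted p under 0.05, and 0 by DESeq2, with 259 at an unadjusted p. Of the 86 genes, 76 were tested there, and 13 had an unadjusted p under 0.05, 9 in the direction seen in TAMs and 4 in the opposite one. Whether the genotype effect differs between the 2 cell types was not tested.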

How the data were processed

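Deposited values are counts of molecules per gene and library: per the labels and the study's methods, the authors sequenced barcoded cDNA of 100 cells per library, mapped reads to the mouse genome (mm10) with STAR and counted distinct barcodes for each gene of the refFlat annotation. The table has 24781 genes, and 26 gene names that read as dates were kept as written. Groups came from the sample titles, and no column was without a sample.

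Counts of the 18 TAM libraries were fitted with edgeR 4.0.16 (R 4.3.3) by quasi-likelihood with TMM factors and 1 coefficient per group. The genotype contrast gave each *muMt*-/- group a weight of 0.5. The 9469 genes with a mean above 1 normalized molecule (DESeq2 1.42.0 size factors) were tested, and p-values were adjusted over all of them by Benjamini-Hochberg with a threshold of 0.05. CD8+ T cell libraries had a fit of their own. The biological coefficient of variation was 0.195. On simulated data the fit called 49 of 96 planted 2-fold changes and 79 of 91 planted 4-fold changes, each with the right sign, with 10 wrong calls among 138, and 1 call where no change was planted in any gene. A gene that did not pass may therefore still differ by 2-fold. Depth was compared by a two-sided exact permutation test over all arrangements.

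List levels are summed counts per 10000 molecules of a library. Coordinates and sequences are from RefSeq for GRCm38.p6, the build of mm10. The genes to name were, among called genes with a mean of at least 5, the 12 highest and the 12 lowest by log2 fold change, the 5 lowest p in each direction, the called or else the 2 most abundant members of 43 gene lists, check genes, and genes called between the pellets; all others were chosen after their values were seen. Picked genes without a call are named in part only. Members and lists were chosen with earlier results of these data known. The alternatives tried were other normalization, tests, filters, depth corrections, a replicate block and leaving out libraries. The gene targeted in *muMt*-/- mice was not analysed here. A called gene and a marker gene are not reported here by name.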

Additional observations from a re-analysis of the deposited data

Results flagged for a closer look

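Within each group of 6 TAM libraries, a library was picked out where the gap to its nearest neighbour was large beside the range of the group. Of 126 groups of values looked at, 21 had such a library. A rate of about 1 in 20 groups by chance holds for independent groups of normally distributed values. Some groups here held low counts, and the groups came from the same libraries. The number picked out can therefore not be set against that rate, and the causes were not tested.

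Most of the values picked out belonged to a few libraries. WT library 5 was the highest of its group for *Clec7a* (159 normalized molecules), *Tiparp* (21.3), *Suco* (12.6), *Ccl24* (5.02) and the neutrophil marker list (2.07 per 10000 molecules). It lay nearer to the *muMt*-/- libraries in the 4 genes than the other WT libraries did. GABA library 1 was the highest of its group for *Clec7a* (393), *Gdap10* (51.8) and *Suco* (29.2), and the lowest for the neutrophil list (0.527 per 10000). *muMt*-/- library 4 was the highest for *Clec7a* (459), *Klf9* (15.3) and the nuclear RNA list (105 per 10000). GABA library 2 was the highest for *Igfbp7* (2.88), the fibroblast list (28.9 per 10000) and the B cell list (0.533 per 10000).

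Single values stood out elsewhere. WT library 1 was the highest for the endothelial list (5.78 per 10000) and the dendritic cell list (1.69 per 10000), and WT library 6 for the fibroblast list (64.8 per 10000). WT library 3 was the highest for *Asf1b* (18.2) and WT library 4 the lowest for *Mad2l1* (5.81). *muMt*-/- library 3 was the one of its group with a molecule of the eosinophil, basophil and mast cell list (0.0478 per 10000).

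Between the pellets, *BC018473* was lower with GABA (log2 fold change −2.38, edgeR adjusted p = 1.95e-07) and *Lrrc17* higher (1.58), the 2 genes whose genotype effect differed between the arms by the test of that difference.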

How the results depend on the processing

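All 86 genes called for the genotype effect kept their direction in each alternative that tested them. The count of 86 became 136 with filterByExpr, 249 without a filter, 10 with log2 molecules as a covariate, 38 with libraries thinned to the shallowest one (32 of them among the 86) and 41 in a fit of WT and *muMt*-/- as 2 groups. Chosen after the data were seen, the libraries with at least 200000 molecules gave 14 and the 14 libraries without the 4 that stand apart gave 27. Leaving out 1 library gave 35 (without WT library 1) to 127 (without GABA library 6). DESeq2 gave 83, DESeq2 size factors in edgeR 90, a mean above 5 103 and the robust fit 105.

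For the pellet difference, 2 became 7 with DESeq2, 51 without a filter, 4 in the robust fit (where *Lrrc17* had an adjusted p of 0.154), 5 with the covariate, 8 when thinned and 2 to 36 without 1 library. For the placebo arm, 194 became 295 with filterByExpr, 343 without a filter, 11 with the covariate, 106 when thinned, and 67 (without *muMt*-/- library 4) to 338 (without GABA library 1); it was 87 without WT library 1 and 125 without WT library 6. For the GABA arm, 7 became 3 with DESeq2, 2 with filterByExpr, 63 without a filter, 2 with a mean above 5, and 2 to 9 without 1 library, with a move of over 1.5 times in 10 of 18 such fits. For CD8+ T cells, 0 by edgeR became 79 without a filter, 2 in the robust fit, 17 without WT library 5, 1 without *muMt*-/- library 2, and stayed 0 in the other fits without 1 library. The log2 ratio of depth, −0.46, ranged from −0.51 to −0.39 without 1 library, with exact permutation p of 0.00913 to 0.057. The cause of these moves was not tested.

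Libraries with the same number did not deviate together (r of −0.117 to 0.0896 over 18 pairs, and 1 of 18 libraries correlated best with its own number), so they share a number only. With the replicate block, the genotype effect had 83 calls, 71 of them among the 86, the pellet difference 4, the placebo arm 201, the GABA arm 6 and CD8+ T cells 3.

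With 6 libraries per group of 100 cells, low genes limit the comparison: 9795 of 24781 genes had no molecule in the TAM libraries. Depth was lower in *muMt*-/- TAMs, so the parts of depth and genotype in a difference cannot be fully told apart. WT TAMs with a GABA pellet were not analysed here, and sublines of WT mice are not given per library.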

Other observations

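Markers of T and NK cells, neutrophils and tumour cells were few in the TAM libraries. Per 10000 molecules, the 21 T and NK cell markers counted, led by *Ccl5*, came to 2.85 ± 1.20 in WT, 4.48 ± 1.48 in placebo-treated and 3.18 ± 1.95 in GABA-treated *muMt*-/- TAMs (SD, n = 6), with *Ncr1* at 0. The neutrophil list, led by *Csf3r*, came to 0.900 ± 0.615, 1.44 ± 0.516 and 1.16 ± 0.329, with *Retnlg*, *Camp*, *Ngp*, *Elane* and *Mpo* at 0. The epithelial tumour list, led by *Cdh1*, came to 0.455 ± 0.0553, 1.02 ± 0.372 and 0.666 ± 0.369, with *Epcam*, *Krt18*, *Krt19*, *Cldn4*, *Cldn7* and *Msln* at 0. The monocyte list, led by *Fn1* and compared above, was more abundant and came to 32.1 ± 2.02, 49.2 ± 6.75 and 39.6 ± 3.90. Few genes of the T and NK cell, neutrophil and epithelial lists reached the level for testing, 3, 6 and 1. None of them passed by edgeR or by DESeq2, and 0, 1 and 1 had an unadjusted edgeR p under 0.05.

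Chosen after their values were seen, further genes that rose were *Bcl2l11*, which encodes the cell death protein BIM (log2 fold change 0.92 ± 0.20, edgeR adjusted p = 0.0159; 0.0556 without WT library 1), *Ninj1*, which encodes the membrane rupture protein ninjurin 1 (0.85 ± 0.19, adjusted p = 0.0194; 0.0717, 0.066 and 0.0626 without WT libraries 1, 2 and 3), and *Gsr*, the glutathione reductase (1.02 ± 0.26, adjusted p = 0.042; lost in 13 of 18 fits without 1 library). Further falls, chosen in the same way, were *Pclaf*, a partner of the replication clamp (−0.75 ± 0.15, adjusted p = 0.00881), *Hint1*, a nucleotide hydrolase (−0.77 ± 0.16, adjusted p = 0.0148), and *H2afz*, which encodes histone H2A.Z (−0.63 ± 0.16, adjusted p = 0.0434; lost in 11 of 18 fits).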
